A study of Homo sapiens with 6 samples.

Results

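The genes described here encode ligands through which natural killer (NK) cells recognise tumour cells, namely MICA, MICB, ULBP1, ULBP2, ULBP3, RAET1E and RAET1G, which bind the activating receptor NKG2D, NCR3LG1 and BAG6, which bind the activating receptor NKp30, and CD58, which binds CD2. They were chosen by gene symbol, and all 10 were found among the 27009 genes of the deposited table. Expression had been measured by bulk RNA sequencing in 6 libraries of Hep3B cells, a human hepatocellular carcinoma line, and every library came from cells in which endogenous PD-L1 had been knocked out. The 3 vector libraries came from knockout cells labelled as carrying the empty vector, and the 3 nPD-L1 libraries from knockout cells labelled as carrying nPD-L1, a PD-L1 with a short mutated stretch that places it in the nucleus. According to the study's methods, nPD-L1 was cloned behind a CMV promoter in a lentiviral vector with a puromycin resistance gene and delivered into the knockout cells, so both groups are stably infected lines and not primary tumour cells. The study calls the libraries of a group independent samples, but neither it nor the labels say whether they came from separate cultures, so p-values measure only the spread between these libraries, which may be technical.

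NKG2D is carried by NK cells and cytotoxic T cells, and its ligands are distant relatives of MHC class I that do not present peptide. They are scarce on most healthy cells and are induced by DNA damage, heat shock and other stress, and release of the ligands from the surface by metalloproteases is a known way for hepatocellular carcinoma cells to lose NKG2D recognition. NKp30 is a natural cytotoxicity receptor, while CD2 is an adhesion and costimulatory receptor of NK and T cells. The comparison of nPD-L1 with vector libraries therefore asked whether the tumour cell side of NK recognition differed at the RNA level, as part of the study's question of how nuclear PD-L1 bears on antitumour immunity.

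None of the 9 ligand genes that could be tested passed the threshold in limma, where 4.96% of all genes tested did. The differences farthest from 0 were those of NCR3LG1, with a fold of 2.31 (95% interval 1.27 to 4.21) in nPD-L1 over vector libraries, and ULBP1, with a fold of 0.679 (0.519 to 0.888), and both missed the threshold (adjusted p = 0.144 and 0.126 in limma with Benjamini-Hochberg adjustment). ULBP2 and CD58, like NCR3LG1, were higher in every nPD-L1 library than in every vector library, at folds of 1.38 (1.03 to 1.85) and 1.30 (1.02 to 1.65) that also missed the threshold, while MICA, MICB, ULBP3, RAET1E and BAG6 overlapped between the groups. RAET1G did not reach the minimum for testing, which was 10 or more scaled reads in 3 or more libraries. Values are scaled reads, that is, the reads counted on a gene divided by a size factor of the library, and fold changes compare nPD-L1 with vector libraries on the log2(value + 1) scale.

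By limma, 0 of 9 tested ligand genes had an adjusted p under 0.05, beside 748 of the 15076 genes tested, and 4.04% of all genes tested were called higher and 0.922% lower in nPD-L1 libraries. At an unadjusted p under 0.05 there were 4 of 9 (ULBP1, ULBP2, NCR3LG1 and CD58), beside 14.2% of all genes tested. The groups did not overlap in the same 4 of 9, beside 20.6% of all genes tested. Of these 4, 3 were higher (12.0% of all genes) and 1, ULBP1, lower (8.54%). edgeR and DESeq2 on recovered reads also called 0 ligand genes, beside 5.03% and 6.37% of all genes, with 4 and 3 ligand genes at an unadjusted p under 0.05, beside 14.2% and 13.5% of all genes tested. The median log2 fold change was -0.013 over the 9 ligand genes and -0.019 over all genes tested. With numbers this small, the shares describe these genes and were not tested as a set.

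The recovered depth was 17427519 to 22253295 reads on genes per library, and the 10 most abundant genes took 6.43% to 7.43% of them. In vector replicate 2, 903 genes lay over 2-fold from the other vector libraries, in vector replicate 3, 672, and in the other 4 libraries, 390 to 465. CD274, the PD-L1 gene itself, had 28.3, 38.4 and 47.8 scaled reads in vector replicates 1, 2 and 3 and 16.8, 19.2 and 30.9 in nPD-L1 replicates 1, 2 and 3. It was thus not higher where nPD-L1 had been introduced (log2 fold change -0.76, SE 0.34, adjusted p = 0.338 in limma), and the groups are therefore named by their labels throughout. The labels do not say which part of the gene was knocked out, so its level does not check the knockout. Of 8 hepatocyte and hepatoma marker genes, 6 were in the table, of which ALB, APOA1, APOA2 and TTR had at most 2.89 scaled reads in any library, SERPINA1 had 7.91 to 41.4 and FGB, a fibrinogen chain, 962 to 1541. The other two, AFP and GPC3, were looked for and not analysed here. ALB, the defining hepatocyte marker, was thus near 0 in cells labelled as a liver cancer line. Of 12 marker genes of NK and T cells, 5 were in the table, and their sum was 3.39 to 19.2 scaled reads in vector and 5.79 to 12.1 in nPD-L1 libraries, with PTPRC, the pan-leukocyte marker CD45, at 0 in 5 of 6 libraries. CD226 had 15.1, 2.26 and 13.5 in vector replicates 1, 2 and 3 and 5.88, 10.1 and 0.965 in nPD-L1 replicates 1, 2 and 3. KLRK1, the gene of NKG2D itself, had at most 4.04 in any library. Of 5 stromal and endothelial markers, 4 were in the table and summed to 60.3 to 89.8 in vector and 456 to 495 in nPD-L1 libraries. This was almost all COL1A1, which rose (log2 fold change 2.84, SE 0.19, adjusted p = 7.99e-06 in limma), while PDGFRB, PECAM1 and VWF stayed at or below 8.31 scaled reads in every library. In bulk RNA, fewer cells of a type and less RNA per cell cannot be told apart.

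ULBP1, ULBP2 and ULBP3 encode NKG2D ligands that are held in the membrane by a lipid anchor. The promoters of ULBP1 and ULBP2 are shown because these neighbours in the ULBP/RAET1 cluster on chromosome 6 had opposite differences, and those of NCR3LG1 and CD58 because they are the other ligand genes whose groups did not overlap. This choice was made after their values were seen. The sequences are from RefSeq (GRCh38.p14), are written on the strand of the gene, and hold the bases upstream of the start in both RefSeq and the deposited annotation. Capitals mark matches on either strand to the GC box GGGCGG, the core TGACG of the cyclic AMP response element and the CCAAT box, and TGANTCA and TATAAA were also searched.
ULBP1, chr6:149963693-149963942, plus strand: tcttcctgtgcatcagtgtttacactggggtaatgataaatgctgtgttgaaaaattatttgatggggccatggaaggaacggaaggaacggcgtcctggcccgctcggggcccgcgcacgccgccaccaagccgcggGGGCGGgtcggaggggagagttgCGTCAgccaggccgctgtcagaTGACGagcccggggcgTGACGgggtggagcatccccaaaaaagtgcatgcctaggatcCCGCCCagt
ULBP2, chr6:149941764-149941999, plus strand: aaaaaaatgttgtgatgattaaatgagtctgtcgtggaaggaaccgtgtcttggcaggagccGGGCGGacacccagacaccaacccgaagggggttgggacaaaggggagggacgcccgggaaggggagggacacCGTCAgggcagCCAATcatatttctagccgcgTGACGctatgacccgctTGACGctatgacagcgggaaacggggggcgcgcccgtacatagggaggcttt
NCR3LG1, chr11:17351550-17351725, plus strand: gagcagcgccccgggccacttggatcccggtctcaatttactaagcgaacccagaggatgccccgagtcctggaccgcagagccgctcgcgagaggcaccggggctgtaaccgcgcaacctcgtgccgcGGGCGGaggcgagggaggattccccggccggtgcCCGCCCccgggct
CD58, chr1:116571040-116571276, minus strand: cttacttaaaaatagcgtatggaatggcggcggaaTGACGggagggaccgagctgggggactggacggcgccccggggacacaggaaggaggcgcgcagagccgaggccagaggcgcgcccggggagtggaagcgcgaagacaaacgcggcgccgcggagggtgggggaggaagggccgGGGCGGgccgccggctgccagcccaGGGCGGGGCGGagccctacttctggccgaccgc
The ULBP1 window held 3 matches to TGACG, and so did that of ULBP2. Among 35116 RefSeq promoters cut to the same length, 1.01% and 0.880% held at least 3, and 21.2% and 20.1% held any. The ULBP1 window also held 2 GC boxes, beside at least 2 in 24.3% of promoters of its length. That of ULBP2 also held 1 GC box and 1 CCAAT box, beside 40.9% and 31.1% of promoters with any. The NCR3LG1 window held 2 GC boxes, beside at least 2 in 13.4% of promoters of its length, and no match to TGACG. The CD58 window held 3 GC boxes, of which 2 overlap one another, beside at least 3 in 12.5% of promoters of its length, and 1 match to TGACG. None of the 4 windows held TGANTCA or TATAAA. GC content was 61.6%, 58.9%, 71.6% and 72.6% for ULBP1, ULBP2, NCR3LG1 and CD58, and the median over all promoters was 58.0%. That median is for 250 bases, the length of the ULBP1 window. The windows of ULBP2, NCR3LG1 and CD58 were shorter (236, 176 and 237 bases), and GC content was not compared at their lengths. These matches describe the letters in these windows and do not show binding by any factor.

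ULBP1 (ENSG00000111981, chromosome 6, 149964007 to 149973710, plus strand, GRCh38) had 154, 152 and 160 scaled reads in vector replicates 1, 2 and 3 and 89.1, 123 and 106 in nPD-L1 replicates 1, 2 and 3. The vector libraries lay close together and above all nPD-L1 libraries. The means were 156 ± 3.93 and 106 ± 17.2 (SD, n = 3 each), a log2 fold change of -0.56 (SE 0.18, 95% interval -0.95 to -0.17). The adjusted p was 0.126 in limma, 0.140 in edgeR and 0.1075 in DESeq2. Of the alternatives tried, 0 of 18 brought ULBP1 past the threshold, with log2 fold changes from -0.67 to -0.44 and adjusted p from 0.0791 to 0.336.

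ULBP2 (ENSG00000131015, chromosome 6, 149942000 to 149949235, plus strand) had 76.7, 71.2 and 62.4 scaled reads in vector replicates 1, 2 and 3 and 105, 94.1 and 90.7 in nPD-L1 replicates 1, 2 and 3. Here every nPD-L1 library was above every vector library, opposite to ULBP1. The means were 70.1 ± 7.24 and 96.6 ± 7.51 (SD, n = 3 each), a log2 fold change of 0.46 (SE 0.19, 95% interval 0.036 to 0.88, adjusted p = 0.296 in limma). Of the 100-base stretches of its GENCODE transcripts, 11.9% also occur in other genes, most of them in RAET1L, which was not analysed here, so some reads of this gene could have been assigned elsewhere. Per kilobase of transcript, the ratio of ULBP2 to ULBP1 was 1.16, 1.09 and 0.907 in vector replicates 1, 2 and 3 and 2.75, 1.78 and 1.99 in nPD-L1 replicates 1, 2 and 3. The ratio was therefore near 1 in the vector libraries and higher in each nPD-L1 library (1.05 ± 0.129 against 2.17 ± 0.510, SD, n = 3 each). It was formed after the values of both genes were seen and was not tested.

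MICA (ENSG00000204520, chromosome 6, 31399784 to 31415315, plus strand) and MICB (ENSG00000204516, chromosome 6, 31494881 to 31511124, plus strand) lie in the MHC region and encode transmembrane NKG2D ligands induced by heat shock and other stress. MICA had 735, 972 and 665 scaled reads in vector replicates 1, 2 and 3 and 668, 818 and 655 in nPD-L1 replicates 1, 2 and 3. Replicate 2 was the highest in each group, and the groups overlapped. The log2 fold change was -0.14 (SE 0.15, 95% interval -0.48 to 0.20, adjusted p = 0.747 in limma). MICB had 325, 282 and 272 scaled reads in vector replicates 1, 2 and 3 and 274, 292 and 306 in nPD-L1 replicates 1, 2 and 3. The groups overlapped fully, with a log2 fold change of -0.0097 (SE 0.13, 95% interval -0.30 to 0.28, adjusted p = 0.983 in limma). No 100-base stretch of MICA or MICB occurs in the GENCODE transcripts of any other gene, so neither shares one with the other. Of the exon bases of MICA, 62 (2.60%) lie in another gene on the same strand, HCP5, a stretch too short for this search.

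ULBP3 (ENSG00000131019, chromosome 6, 150063150 to 150069095, minus strand) had 37.3, 14.7 and 54.0 scaled reads in vector replicates 1, 2 and 3 and 26.1, 28.3 and 22.2 in nPD-L1 replicates 1, 2 and 3. The vector libraries enclosed all nPD-L1 libraries, and at 13 to 52 reads per library the interval of the log2 fold change was wide (-0.28, SE 0.43, 95% interval -1.24 to 0.68, adjusted p = 0.819 in limma). RAET1E (ENSG00000164520, chromosome 6, 149883375 to 149898102, minus strand), also known as ULBP4, had 31.3, 38.4 and 36.4 in vector and 26.9, 24.3 and 47.3 in nPD-L1 replicates 1, 2 and 3. The groups overlapped (log2 fold change -0.16, SE 0.31, 95% interval -0.86 to 0.54, adjusted p = 0.861 in limma), and 34.95% of its exon bases lie in another gene on the same strand, AL355312.5. RAET1G (ENSG00000203722, chromosome 6, 149916878 to 149923121, minus strand), also known as ULBP5, had 5.05, 13.6 and 2.08 scaled reads in vector and 7.56, 17.2 and 4.82 in nPD-L1 replicates 1, 2 and 3, from 2 to 17 reads per library. The groups overlapped (exact permutation p = 0.5, two-sided). Of its exon bases, 9.29% lie opposite the antisense gene RAET1E-AS1, and since the strand setting of the counting is not given, reads of the pair cannot be told apart there.

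The 7 NKG2D ligand genes were also summed per kilobase of transcript, as a measure of their joint RNA level. The sum was 582, 646 and 541 scaled reads per kb in vector replicates 1, 2 and 3 and 525, 605 and 526 in nPD-L1 replicates 1, 2 and 3. The groups overlapped (590 ± 53.0 and 552 ± 45.8, SD, n = 3 each). MICA made up 55.8% ± 6.29 of the sum in vector and 54.1% ± 2.35 in nPD-L1 libraries, and MICB 17.9% ± 2.18 and 18.9% ± 1.76. The remaining 5 genes together made up 26.3% ± 4.64 and 27.01% ± 0.971.

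NCR3LG1 (ENSG00000188211, chromosome 11, 17351726 to 17377341, plus strand) encodes B7-H6, a B7 family surface protein that triggers NKp30 and is rare on normal cells. It had 169, 68.9 and 234 scaled reads in vector replicates 1, 2 and 3 and 251, 342 and 397 in nPD-L1 replicates 1, 2 and 3. All nPD-L1 libraries were above all vector libraries, but the vector libraries ranged widely and replicate 3 came close to nPD-L1 replicate 1. The means were 157 ± 83.1 and 330 ± 73.8 (SD, n = 3 each), a log2 fold change of 1.21 (SE 0.38, 95% interval 0.35 to 2.07). The adjusted p was 0.144 in limma, 0.145 in edgeR and 0.312 in DESeq2. It was past the threshold without vector replicate 2, which held the lowest value (log2 fold change 0.71, adjusted p = 0.0459 in limma), and without vector replicate 3, which held the highest of that group (1.58, adjusted p = 0.0203 in limma). In the other 16 of 18 alternatives it was not past the threshold, and the adjusted p over all 18 ran from 0.0203 to 0.569. Longer genes were lower in vector replicate 2 and higher in vector replicate 3 than in the rest of that group (Spearman's rho of the difference with gene length -0.32 and 0.29, across genes, which are not independent replicates). The same rho was 0.14 in vector replicate 1. In nPD-L1 replicates 1, 2 and 3 it was -0.056, -0.17 and 0.20, so a trend on gene length was not confined to the vector group. With the trend on gene length removed from each library before the fit, the log2 fold change of NCR3LG1 was 1.13 (adjusted p = 0.198 in limma). No 100-base stretch of NCR3LG1 occurs in the transcripts of another gene.

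BAG6 (ENSG00000204463, chromosome 6, 31639028 to 31652705, minus strand) encodes a chaperone that handles newly made and misfolded proteins inside the cell and engages NKp30 when it is released. It had 3023, 3055 and 3039 scaled reads in vector replicates 1, 2 and 3 and 3323, 3138 and 2621 in nPD-L1 replicates 1, 2 and 3. The nPD-L1 libraries lay on both sides of the tightly grouped vector libraries, and the log2 fold change was -0.013 (SE 0.11, 95% interval -0.25 to 0.23, adjusted p = 0.973 in limma). Of its exon bases, 2.56% lie opposite APOM on the other strand. The 2 NKp30 ligand genes thus differed in where their intervals lay, with that of BAG6 around 0 and that of NCR3LG1 above it, and the difference between the genes was not tested.

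CD58 (ENSG00000116815, chromosome 1, 116514535 to 116571039, minus strand), also called LFA-3, supports the contact between a target cell and NK or T cells through CD2. It had 202, 257 and 205 scaled reads in vector replicates 1, 2 and 3 and 272, 327 and 262 in nPD-L1 replicates 1, 2 and 3. The groups did not overlap, although vector replicate 2 came within a few scaled reads of nPD-L1 replicate 3. The means were 221 ± 31.3 and 287 ± 34.6 (SD, n = 3 each), a log2 fold change of 0.38 (SE 0.16, 95% interval 0.032 to 0.72, adjusted p = 0.292 in limma). For each of the 4 ligand genes whose groups did not overlap, the two-sided exact permutation p was 0.1, the smallest that 3 libraries against 3 can give.

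**Figure D1:**
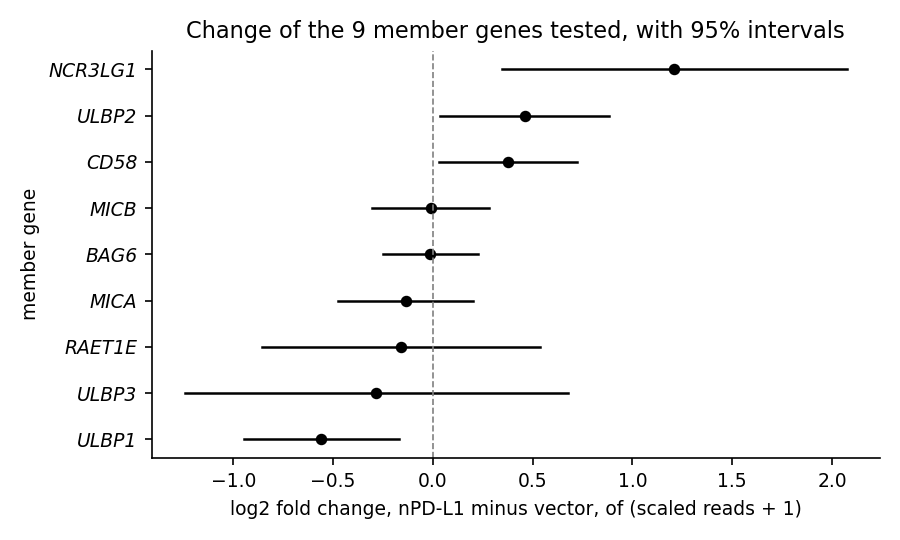
Log2 fold change of the 9 tested ligand genes, nPD-L1 minus vector, of scaled reads plus 1, with 95% intervals from limma. The intervals of NCR3LG1, ULBP2 and CD58 lie above 0, that of ULBP1 lies below 0 and the other 5 include 0, and none of the 9 passed the adjusted threshold.

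Per kilobase of transcript, the levels of the ligand genes spanned a wide range. In vector libraries the order was BAG6 (572 ± 3.01 scaled reads per kb), MICA (331 ± 67.5), CD58 (124 ± 17.6), MICB (105 ± 10.005), ULBP2 (51.9 ± 5.37), ULBP1 (49.5 ± 1.25), ULBP3 (35.8 ± 19.995), NCR3LG1 (24.4 ± 12.9), RAET1E (11.8 ± 1.22) and RAET1G (4.64 ± 4.01, SD, n = 3 each). The ranges of neighbours in this order overlapped for CD58 and MICB and for each step from ULBP2 to RAET1E. In nPD-L1 libraries the order was BAG6 (570 ± 68.5), MICA (299 ± 38.0), CD58 (161 ± 19.4), MICB (104 ± 5.71), ULBP2 (71.6 ± 5.57), NCR3LG1 (51.3 ± 11.5), ULBP1 (33.8 ± 5.46), ULBP3 (25.8 ± 3.14), RAET1E (10.9 ± 4.19) and RAET1G (6.64 ± 4.37, SD, n = 3 each). There the ranges of neighbours overlapped for NCR3LG1 and ULBP1, for ULBP1 and ULBP3, and for RAET1E and RAET1G.

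**Figure D2:**
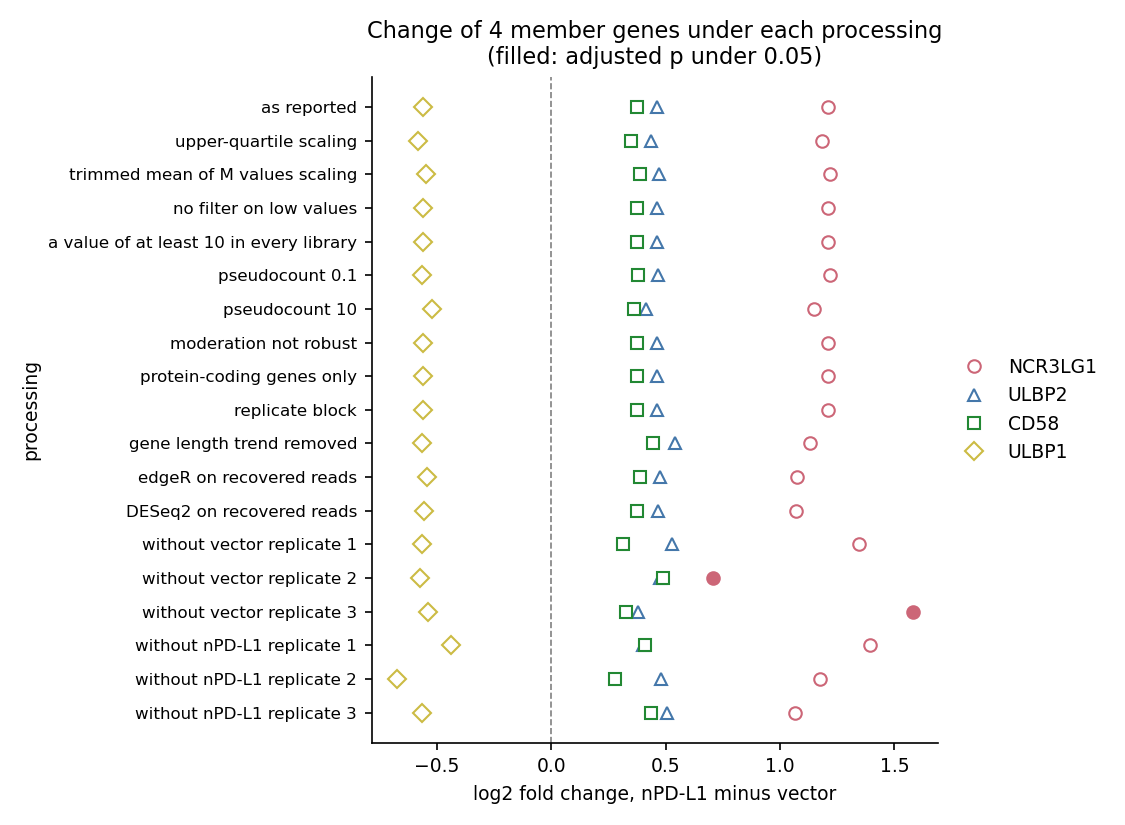
Log2 fold change, nPD-L1 minus vector, of NCR3LG1, ULBP2, CD58 and ULBP1 as reported and under each of 18 other ways of processing, with filled symbols where the adjusted p was under 0.05. Each gene keeps its direction throughout, and the only filled symbols are those of NCR3LG1 without vector replicate 2 (0.71) and without vector replicate 3 (1.58).

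For each tested ligand gene, the genes with the most similar profile were sought among 10725 genes whose mean was 100 scaled reads or more, by Pearson's r of log2(value + 1) over the 6 libraries. The 2 nearest were CDKN1B (0.987) and MB21D2 (0.987) for ULBP1, F8A1 (0.993) and RXRB (0.990) for ULBP2, ABHD2 (0.995) and PSME4 (0.994) for NCR3LG1, and ACSL1 (0.974) and PLEKHH3 (0.973) for CD58. They were COX7A2L (0.999) and KPTN (0.996) for MICA, SNHG20 (0.951) as the nearest for MICB, FTO (0.989) and JRK (0.979) for ULBP3, ST7L (0.990) and RBM48 (0.983) for RAET1E, and KCTD10 (0.991) as the nearest for BAG6. The points share library, depth and group, and each value is the highest of many over 6 libraries, so they only describe these profiles. Between ligand genes, r was lowest for ULBP1 and ULBP2 (-0.915).

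Genes that act beside these ligands in the recognition of a target cell were taken from 5 lists with 69 genes, of which 65 were in the table and 59 could be tested. By limma, 1 of the 59 rose (PVR), beside 4.04% of all genes tested, and 2 fell (DDIT3 and SERPINB9), beside 0.922%. The groups did not overlap in 15 of the 59, beside 20.6%. The median log2 fold change over the 59 was -0.011. edgeR called 3 of them, beside 5.03% of all genes, and DESeq2 5, beside 6.37%, the additional ones in DESeq2 being TNFRSF10B and XIAP.

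Of 16 other ligands of activating or adhesion receptors, 13 were in the table and 11 were tested. The 1 that rose was PVR, beside 4.04% of all genes tested. PVR encodes CD155, a ligand of the activating receptor DNAM-1 and of the inhibitory receptor TIGIT. It had 2709, 2224 and 2989 scaled reads in vector replicates 1, 2 and 3 and 3891, 3662 and 3736 in nPD-L1 replicates 1, 2 and 3, with no overlap. The fold was 1.44 (95% interval 1.198 to 1.72), a log2 fold change of 0.52 (SE 0.12, adjusted p = 0.0283 in limma). The call was lost without vector replicate 1 (adjusted p = 0.109 in limma) and without nPD-L1 replicate 1 (0.141), 2 (0.102) or 3 (0.123), at log2 fold changes of 0.50 to 0.55, and it held in 14 of 18 alternatives. The partner ligand NECTIN2 had a log2 fold change of 0.059 (SE 0.11, adjusted p = 0.848 in limma). NID1, an extracellular matrix protein that binds the receptor NKp44, had the value farthest from 0 in this list (0.63, SE 0.41, adjusted p = 0.567 in limma). The highest level per kb was that of PCNA, a replication factor that also binds NKp44, with 6012 ± 639 in vector and 5154 ± 299 in nPD-L1 libraries (SD, n = 3 each, adjusted p = 0.428 in limma). NID1 and PCNA were listed by their receptor, whatever the effect of their binding on NK cells.

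Of 17 ligands of inhibitory receptors, 16 were in the table and 15 were tested. None passed the threshold in limma, edgeR or DESeq2, with 3, 2 and 2 at an unadjusted p under 0.05, beside 14.2%, 14.2% and 13.5% of all genes tested. The list includes CD274, the gene targeted in these cells, which was 1 of the 3 in limma (unadjusted p = 0.0468). B2M, the light chain shared by MHC class I molecules and the most abundant of the list per kb, had 1159 ± 247 scaled reads per kb in vector and 1064 ± 108 in nPD-L1 libraries (SD, n = 3 each, adjusted p = 0.798 in limma). LGALS9, the gene of galectin-9 and a ligand of TIM-3, had 20.2, 10.2 and 26.0 scaled reads in vector replicates 1, 2 and 3 and 34.5, 40.5 and 40.5 in nPD-L1 replicates 1, 2 and 3. Its groups did not overlap, but it did not pass the threshold (log2 fold change 1.09, SE 0.37, adjusted p = 0.166 in limma).

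All 9 genes of ligand shedding and surface control were in the table and 6 were tested. None passed in limma, edgeR or DESeq2, with 1 in each at an unadjusted p under 0.05, beside the same 14.2%, 14.2% and 13.5% of all genes tested. MMP14, a membrane metalloprotease, had 42.4, 45.2 and 41.6 scaled reads in vector replicates 1, 2 and 3 and 27.7, 32.4 and 28.9 in nPD-L1 replicates 1, 2 and 3 (log2 fold change -0.52, SE 0.25, adjusted p = 0.388 in limma). ADAM17, which cleaves MICA and MICB from the surface, had a log2 fold change of 0.33 (SE 0.12, adjusted p = 0.212 in limma), and ADAM10, of the same family, 0.010 (SE 0.095). The highest level per kb was that of TIMP1, a metalloprotease inhibitor, with 2141 ± 360 and 1919 ± 246 (SD, n = 3 each, adjusted p = 0.689 in limma).

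All 19 genes of the stress and DNA damage control of NKG2D ligands were tested. Beside 0.922% of all genes tested, 1 fell. This was DDIT3, which encodes the stress transcription factor CHOP and had 684, 929 and 627 scaled reads in vector replicates 1, 2 and 3 and 349, 499 and 374 in nPD-L1 replicates 1, 2 and 3. The groups did not overlap, with a fold of 0.547 (95% interval 0.417 to 0.718, log2 fold change -0.87, SE 0.18, adjusted p = 0.0157 in limma). The call was lost without vector replicate 1 (0.0568), nPD-L1 replicate 1 (0.108) or nPD-L1 replicate 3 (0.102, adjusted p in limma), at log2 fold changes of -0.92, -0.77 and -0.82, and held in 15 of 18 alternatives. ATF4, a transcription factor upstream of DDIT3 in the integrated stress response, had the highest level per kb of the list, 3752 ± 424 and 3711 ± 212 (SD, n = 3 each, adjusted p = 0.9752 in limma).

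All 8 genes of death receptors and granzyme control were tested, and 1 fell, beside 0.922% of all genes tested. At an unadjusted p under 0.05 in limma there were 3 of 8, beside 14.2% of all genes tested. The groups did not overlap in 5 of 8, beside 20.6%, with TNFRSF10B and XIAP higher and FAS, CFLAR and SERPINB9 lower in nPD-L1 libraries. DESeq2 called 3 of 8, beside 6.37%. These shares were not tested. SERPINB9, the intracellular inhibitor of granzyme B, had 297, 297 and 337 scaled reads in vector replicates 1, 2 and 3 and 215, 216 and 205 in nPD-L1 replicates 1, 2 and 3. The fold was 0.686 (95% interval 0.561 to 0.838, log2 fold change -0.54, SE 0.13, adjusted p = 0.0391 in limma). The call was lost with no filter on low values (0.0640) and without any 1 of the libraries other than vector replicate 2 (0.103 to 0.174, adjusted p in limma), at log2 fold changes of -0.58 to -0.48. TNFRSF10B, the TRAIL receptor DR5 and the highest of the list per kb, had 719 ± 45.3 scaled reads per kb in vector and 917 ± 37.2 in nPD-L1 libraries (SD, n = 3 each). It was not past the threshold in limma (log2 fold change 0.35, adjusted p = 0.0695) and was past it in DESeq2 (adjusted p = 0.0217). XIAP, an inhibitor of caspases, stood likewise at 0.0566 in limma (log2 fold change 0.39) and 0.0250 in DESeq2 (adjusted p).

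**Figure D3:**
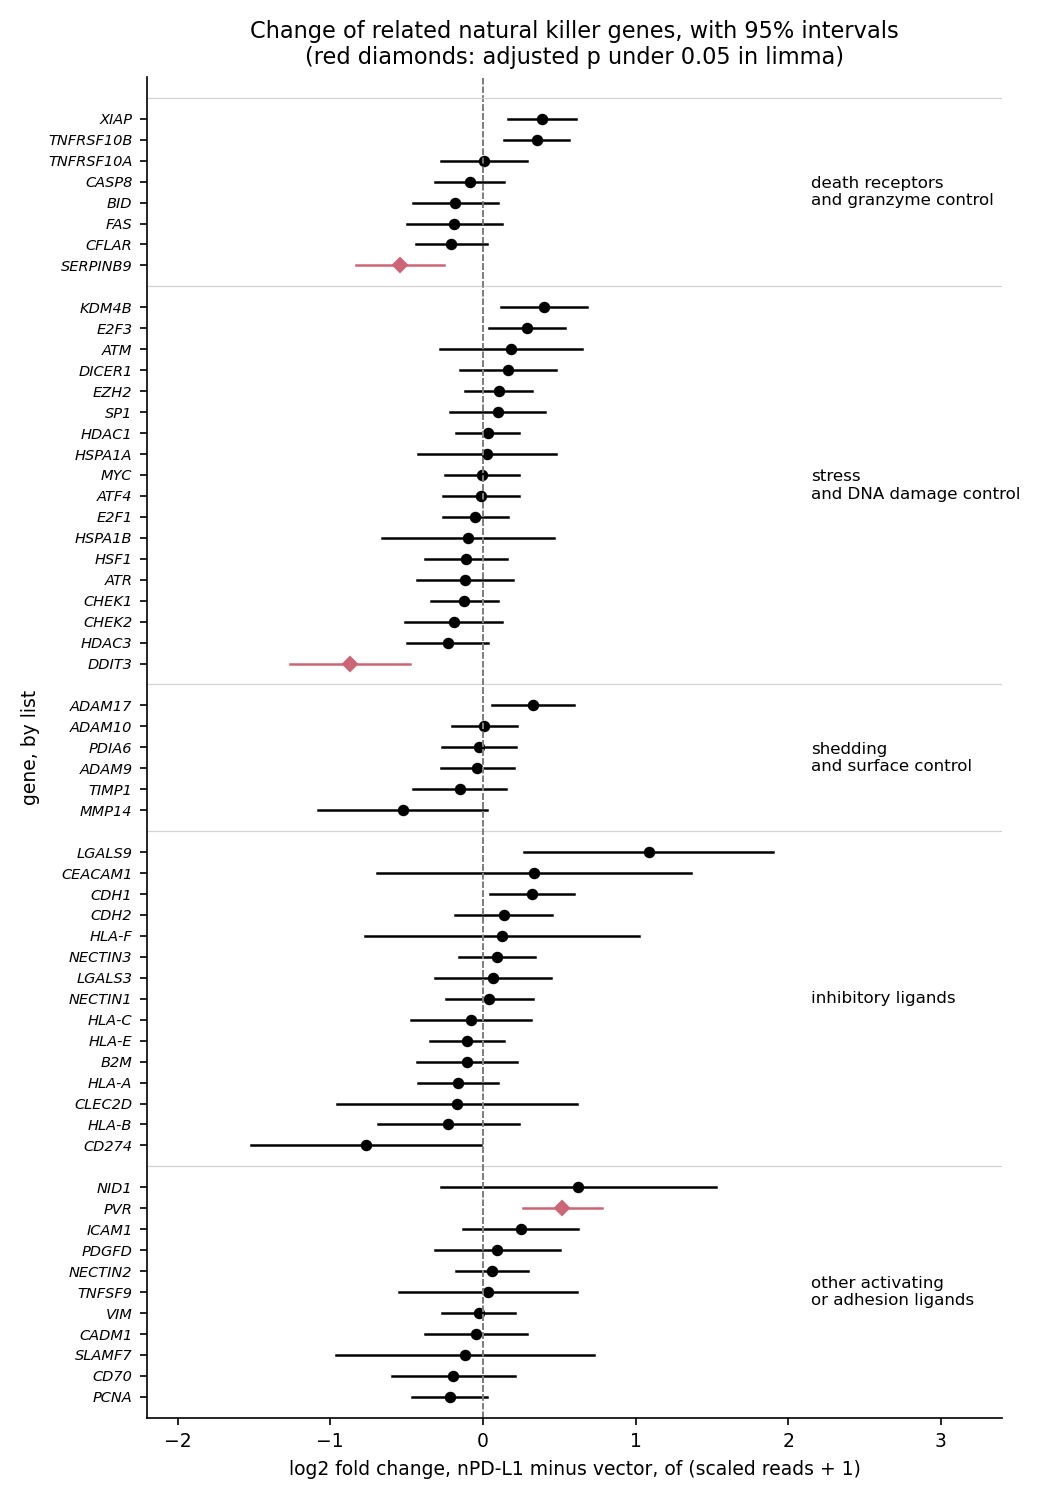
Log2 fold change, nPD-L1 minus vector, of scaled reads plus 1, with 95% intervals from limma, for the tested genes of the 5 related lists, with 1 tested gene not drawn. Red diamonds mark PVR, which rose, and DDIT3 and SERPINB9, which fell, and no other point was past the threshold.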

How the data were processed

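RNA of 6 Hep3B libraries (3 vector, 3 nPD-L1) had been sequenced by a company from NEBNext Ultra libraries, and groups were taken from the sample titles. The submitters' processing notes name CASAVA, HISAT2 (version 2.0.5) and hg38. The counter and its strand setting are not given in the sources used here. The authors' deposited values are a signal, reads per gene divided by a size factor of the library, although the table calls them raw. All nonzero values (100%) were whole multiples of the value of 1 read, within 0.01 read. Without this division, with 1 read worth 1, only 1.07% to 9.94% of them would be whole. The deposited gene length in bases is the authors' annotation, and it and the coordinates equal GENCODE release 29 for all 10 ligand genes. The table also holds the authors' group means, log2 fold changes and p-values, which were not used.

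The test was limma in R 4.3.3 (package version 3.58.1), applied to log2(value + 1) with trended and robust moderation, for the 15076 genes that had 10 or more scaled reads in 3 or more libraries. Calls needed an adjusted p under 0.05 over all of them (Benjamini-Hochberg). Count models, namely edgeR's quasi-likelihood test (version 4.0.16) and, as a further alternative, DESeq2 (version 1.42.0), used the recovered reads of the 6 libraries. The fits were also run on simulated reads with known changes. These had the same spread for every gene and no outlying library or gene length trend. They therefore do not measure how the fits perform on the present libraries. Values per kb are scaled reads divided by the deposited gene length. Permutation tests were exact and two-sided.

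The ligand genes, the related lists and the tests were chosen with earlier results of these data known. The genes named were all ligand genes, CD274, each called gene of the related lists and, per list, the gene with the log2 fold change farthest from 0 and that with the highest value per kb. NECTIN2, ADAM17, ADAM10, XIAP and the marker genes with values were named beyond this rule, after their values were seen. Some results for single genes of the related lists and of similar profile are left out and not reported here. Other scalings, filters, pseudocounts, moderation, protein-coding genes only, a replicate block, removal of the gene length trend (loess, span 0.3) and each library left out were the alternatives.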

Additional observations from a re-analysis of the deposited data

How the results depend on the processing

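No ligand gene was called under the 12 alternatives that kept all libraries. Leaving out each library in turn gave 0 to 1 called ligand genes (NCR3LG1 without vector replicate 2 or 3), 0 to 5 of the related genes, and, over the whole table, 331 to 791 higher and 76 to 242 lower. The related genes called went from 3 to 6 under the replicate block and to 5 in DESeq2. The replicate block gave 927 higher genes over the whole table, against 609, and 258 lower, against 139. Libraries with the same number did not all deviate together (correlations -0.013, 0.229 and 0.131), and vector replicate 1 correlated best with nPD-L1 replicate 3, so the numbers were not taken as pairs. The cause of these differences was not tested.

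ULBP1, ULBP2, NCR3LG1 and CD58 kept their direction in all 18 alternatives. MICA, ULBP3 and RAET1E took the other sign in 1, BAG6 in 2 and MICB in 4, always with an adjusted p over 0.05 in the test used. No scaling moved the median of all genes by over 0.1 on the log2 scale. ULBP3, RAET1E and RAET1G had few reads, which limits what can be said of them.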
